A study of Arabidopsis thaliana with 4 samples.

Results

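Expression was followed for 7 Arabidopsis genes used by dividing cells, out of 13286 genes that could be named from the arrays. They are the histone H2B genes HTB1 (AT1G07790) and HTB2 (AT5G22880), PRL (AT4G02060, which encodes MCM7), 3xHMG-box2 (AT4G23800), and the Aurora kinase genes AUR1 (AT4G32830), AUR2 (AT2G25880) and AUR3 (AT2G45490). They were picked by name, as genes serving DNA replication or mitosis, after results of the same contrast were known. Their differences between the groups are therefore given as a description without a test. Each of the 7 was read by 1 probe set, the group of short probes that an Affymetrix array uses for a transcript, among 22746 probe sets in all.

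RNA came from immature inflorescences on the primary bolts of 5-week-old plants of the ecotype Ler-0 (Landsberg erecta), grown with 16 h of light per day and cut 11 h into the light period. The T24 group (2 arrays) was kept detached for 24 h in darkness in a black 2 L container at 21 °C, lying on paper moistened by 50 mL of water. The T0 group (2 arrays) was frozen at once after cutting. Inflorescences of 10 plants were pooled per time point. Sample titles mark both arrays at either time as biological repeats. Whether each array had a pool of its own is not stated, so every SE and p-value here measures only the spread between these arrays. Detachment, darkness and elapsed time all separate T24 from T0 and cannot be told apart.

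Before a cell divides it copies its DNA during S phase and packs the copy around newly made histones, so transcripts of most core histones are plentiful in cells that replicate. MCM7 is a subunit of the MCM2-7 helicase, which is loaded onto replication origins before S phase and unwinds the DNA at the forks. Aurora kinases act later, in mitosis, where they phosphorylate histone H3 and guide chromosome attachment and division of the cell. 3xHMG-box2 encodes a plant protein with HMG-box domains that binds condensed mitotic chromosomes. In an inflorescence such transcripts come mainly from the meristems and young floral organs.

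All expression values are RMA summaries on the log2 scale, as deposited, on which a difference of 1 is a 2-fold difference. They ran from 2.71 to 14.44 over the 4 arrays. RMA gives no detection call, and 35.5% of all probe sets averaged under 5, where low values crowd together. For a gene averaging under 5 in a group, only the change on the RMA scale is given, with no fold. Array medians were 6.09 and 6.08 at T24, against 6.19 and 6.29 at T0. Arrays of a group correlated at 0.961 in T24 and 0.954 in T0, and pairs across the groups at 0.839 to 0.873 (Pearson's r across probe sets, which are not independent replicates).

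The 7 genes divided into 4 that were far lower at T24 (HTB1, HTB2, PRL and 3xHMG-box2) and 3 whose arrays overlapped between the groups (the Aurora kinase genes). The division did not follow S phase against mitosis, because the gene with the largest difference, 3xHMG-box2, is a mitotic one. In the 2 S-phase roles, histone supply and DNA unwinding by the helicase, all 3 genes were lower at T24.

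HTB1 and HTB2 encode histone H2B, which pairs with H2A in the nucleosome. HTB1 stood at 8.78 and 8.20 on the T24 arrays, against 10.89 and 10.94 on the T0 arrays. Both T24 arrays were low, and the groups were separated by a gap of 2.10. The group means were 8.49 ± 0.42 at T24 and 10.91 ± 0.03 at T0 (SD, n = 2 each). HTB1 was thus 5.36-fold lower, with a change of -2.42 ± 0.27 (SE from limma). HTB2 stood at 6.98 and 6.65 on the T24 arrays, against 9.87 and 9.80 on the T0 arrays. Its T0 arrays lay close together and both T24 arrays lay 2.82 or more below them. HTB2 averaged 6.82 ± 0.23 at T24 and 9.84 ± 0.05 at T0 (SD, n = 2 each). HTB2 was thus 8.12-fold lower, with a change of -3.02 ± 0.21 (SE).

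PRL, named PROLIFERA in Arabidopsis, encodes the MCM7 subunit of the replicative helicase. Its values were 4.70 and 5.75 on the T24 arrays, against 7.75 and 8.75 on the T0 arrays. Replicate 2 was higher than replicate 1 in both groups by about as much, and even so the lowest T0 array lay 2.00 above the highest T24 array. PRL averaged 5.22 ± 0.74 at T24 and 8.25 ± 0.70 at T0 (SD, n = 2 each). The change of -3.03 ± 0.53 (SE), or 8.14-fold lower, had the largest SE among the 7 genes.

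3xHMG-box2 was read at 5.79 and 6.10 on the T24 arrays, against 9.74 and 10.46 on the T0 arrays. Both T24 arrays were low, and the gap between the groups was 3.64. Its means were 5.95 ± 0.22 at T24 and 10.10 ± 0.52 at T0 (SD, n = 2 each). Its change of -4.16 ± 0.33 (SE), or 17.8-fold lower, lay at percentile 0.242 of the changes of all probe sets, counted from the most negative. The changes of PRL, HTB2 and HTB1 lay at percentiles 1.03, 1.05 and 2.11.

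The Aurora kinase genes differed from these 4. AUR1 stood at 8.33 and 8.45 on the T24 arrays, against 8.29 and 8.71 on the T0 arrays, so the T24 arrays lay inside the T0 range. AUR2 stood at 7.82 and 8.06 on the T24 arrays, against 7.96 and 8.68 on the T0 arrays, with 1 T24 array below both T0 arrays and the other between them. AUR3 stood at 6.38 and 6.79 on the T24 arrays, against 6.49 and 6.81 on the T0 arrays. For all 3 kinases the higher array of each group was replicate 2, and the groups overlapped. AUR1 and AUR2 are the close pair of alpha Aurora kinases of Arabidopsis, which act at the spindle and in the forming cell plate, and AUR3 is the beta Aurora kinase, found at chromosomes. The changes were -0.11 ± 0.23 for AUR1, -0.38 ± 0.32 for AUR2 and -0.07 ± 0.25 for AUR3 (SE), at percentiles 40.8, 28.5 and 43.5 of all probe sets. The signs of AUR1 and AUR3 depended on the scaling between arrays. Centring each array on its median gave 0.04 for AUR1, -0.22 for AUR2 and 0.08 for AUR3, and quantile scaling gave -0.20, -0.45 and 0.03.

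**Figure D1:**
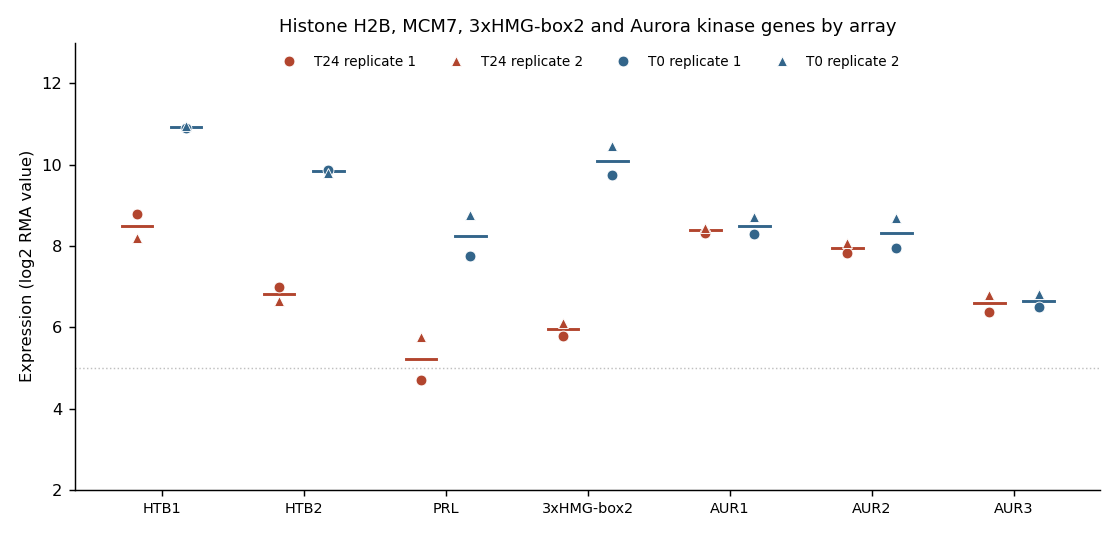
RMA values (log2) of the 7 genes on each of the 4 arrays, with T24 left of T0 for each gene, circles for replicate 1, triangles for replicate 2 and short lines for group means, and a dotted line at 5, below which 35.5% of probe sets averaged. HTB1, HTB2, PRL and 3xHMG-box2 have both T24 arrays below both T0 arrays, with gaps of 2.00 to 3.64, whereas the arrays of AUR1, AUR2 and AUR3 overlap.

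Set side by side, the changes of the S-phase genes HTB1, HTB2 and PRL ran from -3.03 to -2.42, with a median of -3.02. Those of the mitotic genes 3xHMG-box2, AUR1, AUR2 and AUR3 ran from -4.16 to -0.07, with a median of -0.24. The S-phase median minus the mitotic median was -2.78, and the mitotic range enclosed the S-phase range. Among the other S-phase and mitotic genes described below, the medians stood in the opposite order, at -0.98 and -1.83. Among arrays sharing a replicate number, HTB1, HTB2, PRL and 3xHMG-box2 differed by -3.95 to -2.10 for number 1 and by -4.36 to -2.74 for number 2. The same differences of the Aurora kinases ran from -0.14 to 0.03 for number 1 and from -0.62 to -0.03 for number 2.

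Across all 22746 probe sets, limma with Benjamini-Hochberg adjustment called 6.84% lower and 6.39% higher at T24 at an adjusted p under 0.05, and 4 of the 7 genes carried the call for lower. Centring each array on its median moved all changes by 0.16 and turned that balance, with 1299 probe sets lower and 1806 higher at T24, against 1556 lower and 1454 higher as deposited. The call for lower was made for 10.2% of probe sets averaging at least 5, and for 6.02% of named genes with 1 probe set each, where 6.09% were called higher. Leaving the test aside, 13.7% of probe sets were at least 2-fold lower at T24, as were 4 of the 7 genes. Both T24 arrays lay below both T0 arrays for 30.0% of probe sets, and above them for 27.4%. Nothing is read from the members' count, because the contrast that gave it was the one they were proposed from. A transcript level in whole inflorescences cannot tell fewer dividing cells from less RNA per dividing cell.

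**Figure D2:**
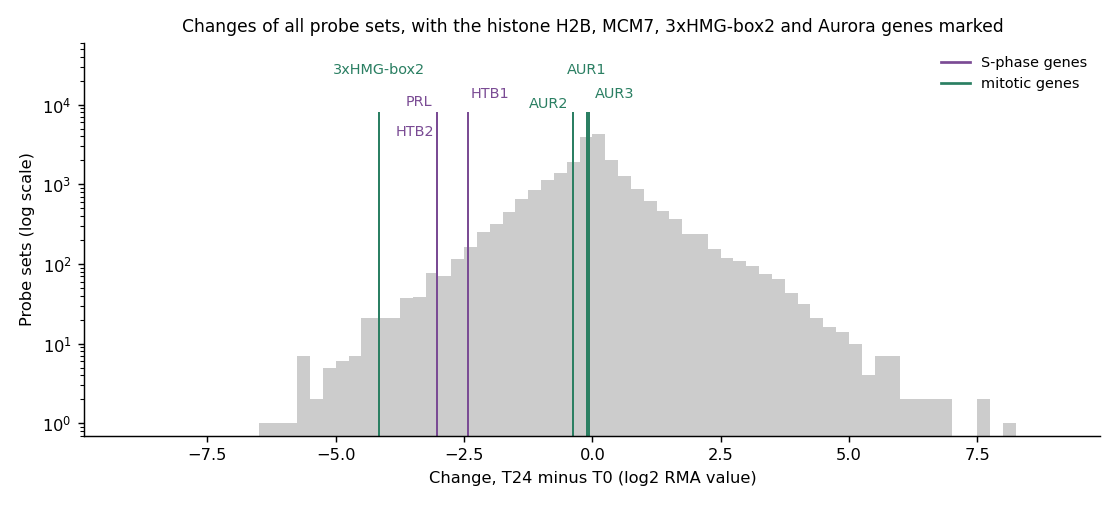
Number of probe sets (log scale) by change, T24 minus T0 (log2 RMA value), over all 22746 probe sets, with lines at the changes of the 7 genes. 3xHMG-box2 at -4.16, PRL at -3.03, HTB2 at -3.02 and HTB1 at -2.42 lie in the lower tail, and AUR1, AUR2 and AUR3 lie between -0.38 and -0.07, near the centre.

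The 7 genes were then set beside other genes of S phase and mitosis, taken from lists drawn up by function. Of 104 listed S-phase genes 22 were measured, and of 61 listed mitotic genes 16, members included. Apart from the members, 4 of 19 measured S-phase genes fell at T24 and 1 rose, the male-gamete H3 variant MGH3 (limma). Of 12 measured mitotic genes, 6 fell and 0 rose. Over all probe sets, 6.84% were called lower and 6.39% higher. The S-phase genes take in all measured core histones of the lists, among them MGH3 and the centromeric variant HTR12. At an unadjusted p under 0.05 stood 10 of the 19 S-phase genes and 8 of the 12 mitotic genes, against 30.4% of all probe sets. The median change was -0.98 for these S-phase genes and -1.83 for these mitotic genes, against -0.00484 for all probe sets. Both T24 arrays lay below both T0 arrays for 11 of the 19 S-phase genes and 11 of the 12 mitotic genes, against 30.0% of all probe sets. These counts come from the same arrays and fit as the members' values and were not tested as groups. Without any 1 of the 4 arrays limma called 0 of these genes, as it called 0 probe sets of the whole table, with smallest adjusted p-values of 0.0896 without T24 replicate 1, 0.0936 without T24 replicate 2, 0.054 without T0 replicate 1 and 0.0571 without T0 replicate 2. At an unadjusted p under 0.05 those refits had 12 or 13 of the 22 S-phase genes and 7 to 12 of the 16 mitotic genes, members included, against 21.5% to 26.1% of all probe sets.

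**Figure D3:**
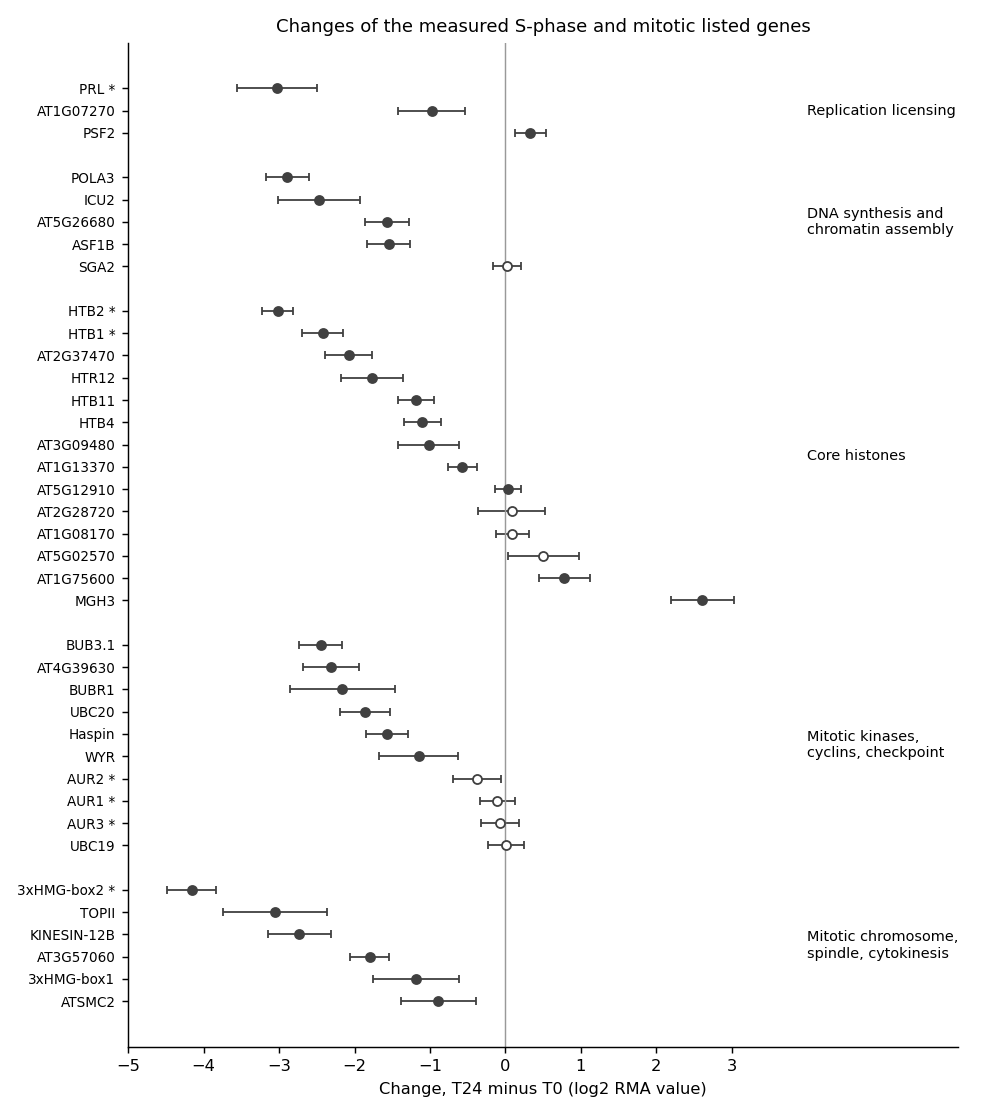
Changes, T24 minus T0 (log2 RMA value), of the measured S-phase and mitotic genes with their SE as bars, an asterisk marking the 7 genes described here, filled points where the T24 and T0 arrays do not overlap and open points where they do. Most mitotic genes lie left of 0, with 3xHMG-box2 at -4.16, while AUR1, AUR2, AUR3 and UBC19 lie near 0 with open points.

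Among genes that prepare and carry out DNA replication, few were measured besides PRL. PSF2, a subunit of the GINS complex that joins the MCM helicase at the fork, did not follow PRL: it had 6.20 and 6.55 at T24, against 6.07 and 6.01 at T0. Its change of 0.33 ± 0.21 (SE) did not pass (adjusted p = 0.397, limma). The other measured gene of the licensing list, known here by its code AT1G07270, was dim, with 3.63 and 4.02 at T24 and 4.26 and 5.35 at T0 (adjusted p = 0.242).

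POLA3 fell. It encodes a subunit of DNA polymerase alpha, which lays down the primers for DNA synthesis. It had 4.55 and 5.04 at T24, against 7.44 and 7.92 at T0, a change of -2.89 ± 0.29 (SE; adjusted p = 0.0183, limma). ICU2, which encodes the catalytic subunit of the same polymerase, had 3.69 and 4.62 at T24, against 6.07 and 7.19 at T0. Its groups were separate too, but its change of -2.47 ± 0.54 (SE) missed the threshold (adjusted p = 0.0618). It passed with a variance trend (adjusted p = 0.0487) and without dim probe sets (adjusted p = 0.0371). AT5G26680, of the same list, fell by 1.57 (adjusted p = 0.0464), and this call was lost with a variance trend (adjusted p = 0.0567) and with robust moderation (adjusted p = 0.0504).

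The histone chaperones ASF1B and SGA2, which deliver histones H3 and H4 to newly copied DNA, were read very differently. ASF1B fell, with 6.58 and 6.86 at T24, against 8.00 and 8.54 at T0 (change -1.55 ± 0.28, SE; 2.93-fold lower; adjusted p = 0.0417, limma). SGA2, also called ASF1A, had 7.51 and 7.39 at T24, against 7.33 and 7.52 at T0, and its arrays overlapped (change 0.02 ± 0.19, SE; adjusted p = 0.966).

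The H2B list held 9 measured genes of 11, HTB1 and HTB2 included, and the 9 were not alike. Both T24 arrays lay below both T0 arrays for 6 of them and overlapped with T0 for 3, and the median change was -1.10. Among all probe sets, 30.0% had both T24 arrays below both T0 arrays and 6.84% were called lower. Of the 7 genes other than HTB1 and HTB2, 1 fell: AT2G37470 had 7.34 and 6.63 at T24, against 9.14 and 9.0 at T0 (change -2.08 ± 0.31, SE; 4.23-fold lower; adjusted p = 0.0297, limma). HTB4 had 10.64 and 10.18 at T24, against 11.54 and 11.48 at T0 (change -1.10 ± 0.24; adjusted p = 0.0596). HTB11 had 8.95 and 8.48 at T24, against 9.87 and 9.93 at T0 (change -1.19 ± 0.24; adjusted p = 0.0526). Both were separate between the groups and just missed the threshold, and quantile scaling took both past it (adjusted p = 0.0429 for HTB4 and 0.048 for HTB11). The H2B genes whose arrays overlapped were AT2G28720, AT1G08170 and AT5G02570, with changes of 0.08 ± 0.45, 0.09 ± 0.22 and 0.50 ± 0.47 (SE). AT3G09480 was the remaining gene (change -1.02 ± 0.41; adjusted p = 0.195). H2B genes are close in sequence, and how far a probe set of one also binds transcripts of another was not tested.

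**Figure D4:**
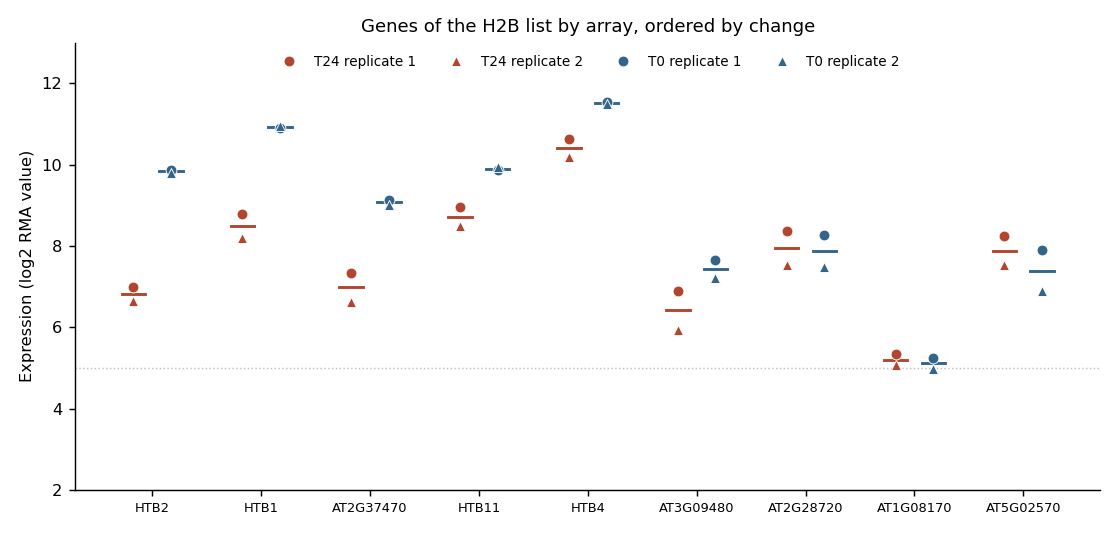
RMA values (log2) of the 9 measured H2B genes on each array, with T24 left of T0 for each gene, circles for replicate 1, triangles for replicate 2, short lines for group means and a dotted line at 5. HTB2 and HTB1 have the largest changes (-3.02 and -2.42), and the arrays of 3 genes overlap between T24 and T0.

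Other histones showed both directions. Of 5 measured H3 genes, MGH3, an H3 variant made in male gametes, rose, with 8.17 and 7.88 at T24, against 5.94 and 4.88 at T0 (change 2.61 ± 0.42, SE; 6.10-fold higher; adjusted p = 0.035, limma). HTR12, the centromeric H3 variant, was separate in the other direction with 4.77 and 4.61 at T24, against 5.93 and 6.99 at T0 (change -1.77 ± 0.41; adjusted p = 0.0694). It passed once probe sets averaging under 5 were left out (adjusted p = 0.0472). AT1G13370, AT1G75600 and AT5G12910 were dim, averaging under 5 in both groups, and did not pass (adjusted p = 0.139, 0.233 and 0.957).

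Linker histones bind the DNA between nucleosomes and are not part of the H2B-containing core. HIS1-3, the drought-inducible linker histone, rose, with 10.90 and 10.97 at T24, against 4.35 and 4.30 at T0 (change 6.61 ± 0.17, SE; adjusted p = 0.0143, limma). The other 2 on that list, AT1G06760 and AT2G30620, had changes of 0.24 ± 0.32 and 0.87 ± 0.23 and did not pass (adjusted p = 0.712 and 0.086). HIS1-3 was thus higher at T24 on the same arrays on which HTB1 and HTB2 were lower. H2A, H4 and the genes of G1 and S-phase entry had no gene measured by a probe set of 1 named gene.

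The mitotic genes were the nearest comparison for the Aurora kinases. Of the 13 measured mitotic genes that are not Aurora kinases, 12 had both T24 arrays below both T0 arrays, and 7 fell, 3xHMG-box2 included. Among all probe sets, 30.0% had both T24 arrays below both T0 arrays and 6.84% were called lower. The median change of the 13 was -1.86, whereas the Aurora kinases ran from -0.38 to -0.07. The difference between the Aurora kinases and the other mitotic genes was not tested, because the kinases were chosen with these values known.

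WYR encodes the plant relative of INCENP, a partner that holds an Aurora kinase on chromosomes. It had 4.30 and 4.96 at T24, against 5.16 and 6.40 at T0, so its groups were separate, unlike those of the kinases. Its change of -1.15 ± 0.52 (SE) did not pass (adjusted p = 0.244, limma). Haspin, a kinase that phosphorylates histone H3 in mitosis and so marks chromosomes for the Aurora complex, fell, with 4.76 and 4.91 at T24, against 6.10 and 6.70 at T0 (change -1.57 ± 0.28; adjusted p = 0.0412). With a variance trend that call was lost (adjusted p = 0.0511). AT4G39630, entered as BORR in the same list of mitotic kinases, cyclins and checkpoint genes, fell by 2.31 (adjusted p = 0.0343, limma). It had 3.84 and 3.95 at T24, against 5.74 and 6.67 at T0.

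Of 2 measured genes of the spindle checkpoint, which delays division until chromosomes are attached, 1 passed. For both genes, both T24 arrays lay below both T0 arrays. Among all probe sets, 6.84% were called lower and 30.0% were separate in this way. BUB3.1 fell, with 6.30 and 6.70 at T24, against 8.69 and 9.20 at T0 (change -2.45 ± 0.29, SE; 5.45-fold lower; adjusted p = 0.0212, limma). BUBR1 had 4.35 and 4.64 at T24, against 5.71 and 7.59 at T0, and its T0 arrays differed widely (change -2.16 ± 0.69; adjusted p = 0.13).

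UBC19 and UBC20 encode near-identical ubiquitin-conjugating enzymes that work with the anaphase-promoting complex. UBC20 fell, with 7.54 and 6.73 at T24, against 8.94 and 9.06 at T0 (change -1.86 ± 0.33, SE; 3.63-fold lower; adjusted p = 0.0426, limma). UBC19 was the 1 mitotic gene besides the Aurora kinases whose arrays overlapped, with 8.97 and 8.75 at T24, against 9.07 and 8.62 at T0. Its change was 0.01 ± 0.24 (adjusted p = 0.986), and -0.06 under quantile scaling. Cross-binding of probes within this pair, or within the pair AUR1 and AUR2, was not tested.

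All 6 measured genes for the mitotic chromosome, the spindle and cell plate formation, 3xHMG-box2 included, had both T24 arrays below both T0 arrays. The same held for 30.0% of all probe sets. KINESIN-12B, a motor of the phragmoplast that builds the new cell wall, fell, with 4.16 and 4.38 at T24, against 6.46 and 7.53 at T0 (change -2.73 ± 0.42, SE; adjusted p = 0.0322, limma). TOPII, which untangles the copied DNA, had 4.92 and 5.50 at T24, against 7.35 and 9.17 at T0 (change -3.05 ± 0.69; adjusted p = 0.0666). It passed with a variance trend (adjusted p = 0.049) and without dim probe sets (adjusted p = 0.038). ATSMC2, a condensin subunit, had a change of -0.89 ± 0.50 (adjusted p = 0.339), and AT3G57060 fell by 1.80 (adjusted p = 0.0284). 3xHMG-box1, the close relative of 3xHMG-box2, was dim on 3 arrays, with 3.18 and 3.35 at T24, against 3.67 and 5.22 at T0 (change -1.18 ± 0.57; adjusted p = 0.272).

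**Figure D5:**
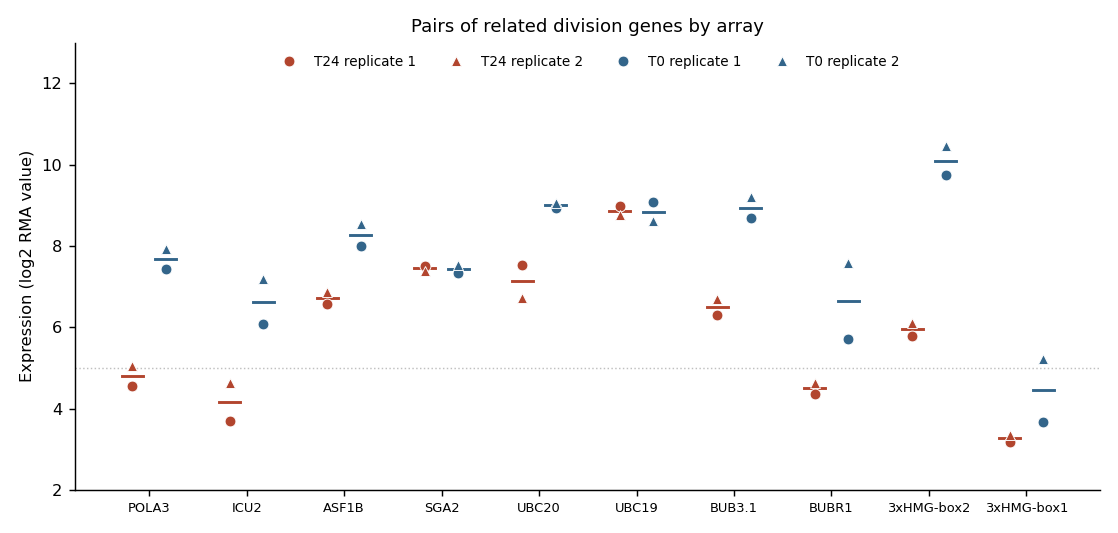
RMA values (log2) on each array for 5 pairs of related division genes, with T24 left of T0 for each gene, circles for replicate 1, triangles for replicate 2, short lines for group means and a dotted line at 5. In the pairs ASF1B with SGA2 and UBC20 with UBC19, the first gene is lower at T24 (changes -1.55 and -1.86) and the arrays of the second overlap.

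Within each of these pairs the difference between the 2 genes' changes was not tested. SIM, an inhibitor of cyclin-dependent kinases that acts in cells that stop dividing and endoreduplicate, was the 1 measured gene of its list. It had 9.60 and 8.52 at T24, against 8.90 and 7.76 at T0, with overlapping arrays (change 0.73 ± 0.58, SE; adjusted p = 0.496, limma).

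For each of the 7 genes, the 2 nearest profiles over the 4 arrays were sought among named genes that themselves ranged over at least 1 log2 unit, by the smallest root mean square difference after centring each gene on its own mean. HTB1 was closest to SWEET17 (0.0385 log2 units) and WLIM2a (0.139), and HTB2 to RALFL34 (0.0742) and CRT1b (0.0753). PRL was closest to Cpn60beta4 (0.206) and then to POLA3 (0.278), the polymerase alpha gene described above. 3xHMG-box2 had no neighbour as close, with AOP3 at 0.394 and ATLP-1 at 0.403. AUR1, AUR2 and AUR3 ranged over only 0.42, 0.86 and 0.44 log2 units, so genes as flat as they are were left out and closer profiles may exist than those given for them. Within that restriction the nearest genes were TRM31 (0.256) and VHA-A1 (0.257) for AUR1, RRP41L (0.094) and VHA-A1 (0.0945) for AUR2, and HDA15 (0.234) and GLR3.6 (0.253) for AUR3. TRM31 was dim, with means of 3.65 at T24 and 4.12 at T0. A comparison over 4 arrays lets many genes look alike.

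Of the markers of other floral cells and meiosis genes measured, 1 pollen marker rose and 1 tapetum marker fell, and the others did not pass. Over all probe sets, limma called 6.84% lower and 6.39% higher, and 30.4% had an unadjusted p under 0.05. AT59, a pollen pectate lyase and the 1 measured gene of 5 pollen markers, rose by 4.20 ± 0.23 (SE; adjusted p = 0.0143, limma), and the linear signal of that list was 1510 to 1590 at T24 and 72.8 to 96.9 at T0. Of 3 measured tapetum markers of 6, 1 fell, the spermidine acyltransferase gene SHT (change -6.19 ± 0.39; adjusted p = 0.0143). The summed signal of the 3 was 258 to 1510 at T24 and 2050 to 6050 at T0. AT5G07230 and AMS had changes of -1.95 ± 1.23 and -0.24 (adjusted p = 0.392 and 0.683). The 4 measured floral meristem and organ markers of 16 summed to 281 to 432 at T24 and 249 to 311 at T0, sums made up mostly by SPT and SPL. limma called 0 of these 4, and 0 had an unadjusted p under 0.05. Those 4 markers were SPT, SPL, UFO and CLV3, with changes of 0.84 ± 0.50, -0.97 ± 0.45, -0.06 and 0.06 (adjusted p = 0.362, 0.254, 0.902 and 0.896; UFO 0.10 with each array centred on its median), and 2 of them averaged under 5. The 3 measured meiosis genes of 9, SDS, ATSPO11-1 and ZYP1b, averaged under 5 in both groups, with summed signals of 45.2 to 49.9 at T24 and 51.8 to 66.4 at T0. Their changes were -0.37, -0.35 and -0.21, with 0 called by limma and 0 at an unadjusted p under 0.05. For all 3, both T24 arrays lay below both T0 arrays, by gaps of 0.01 to 0.09. The same held for 1 of the 4 floral and 1 of the 3 tapetum markers, and for 30.0% of all probe sets. The part of these differences in the changes of the histone, MCM7, 3xHMG-box2 and Aurora genes was not tested.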

How the data were processed

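Affymetrix arrays of 4 samples were analysed. The authors deposited log2 values of 22746 probe sets, made with RMA (per the submitters' processing notes). RMA's version, the annotation and the genome build are not given in the sources used here, and the log base was read from RMA's usual output and the range of values. No coordinates or sequences are given.

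Groups came from the titles. limma 3.58.1 (R 4.3.3; lmFit, eBayes) was fitted to all probe sets, T24 minus T0, without a block, with Benjamini-Hochberg adjustment and a threshold of 0.05. limma was also tested on simulated data. Of the probe sets, 13513 listed 1 gene, 503 several and 8730 none, and 13436 matched the RefSeq gene table by gene ID. A gene was read by its brightest probe set. Array number limits precision: 2 per group.

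The 7 genes and the gene lists were chosen with earlier results of these data known. Named are the 7 genes, their 2 nearest profiles, and from each list up to 4 passing genes per direction, or the 2 brightest where none passed; 27 further listed genes were named after their values were seen. Of 243 listed genes in 16 lists, 53 were measured, 45 of them in the division lists. Alternatives were a replicate block, a variance trend, robust moderation, quantile scaling, median centring, a filter at a mean of 5, a 2-fold limit, any probe set of a gene, and leaving out each array. Replicate differences (replicate 2 minus replicate 1) at T24 and T0 correlated at 0.635 across probe sets; with 2 pairs and no stated shared batch the numbers were not taken as pairs.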

Additional observations from a re-analysis of the deposited data

How the results depend on the processing

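The lower values of HTB1, HTB2, PRL and 3xHMG-box2 kept their direction and call under every alternative fit with all 4 arrays, and no Aurora kinase was called in any. The replicate numbers give 2 pairs and no stated shared batch, and a replicate block raised the probe sets called to 6528, against 3010, the S-phase genes to 12, against 8, the mitotic genes to 9, against 7, and the other division genes to 4, against 2. The 8 division genes it added were ICU2, HTB4, HTB11, WYR, SIM, TOPII, AT3G09480 and AT2G30620 (adjusted p = 0.0142, 0.0325, 0.0354, 0.0417, 0.0405, 0.0226, 0.0431 and 0.0318), and it also called the tapetum marker AT5G07230 (adjusted p = 0.027). Leaving out any 1 array took away all calls. Each such refit has 1 array in a group whose spread is taken from the other, and the cause of the loss was not tested. The S-phase minus mitotic median then ran from -2.56 to -2.46, against -2.78. Of 53 genes named from the lists, members included, 49 stayed on their side with a variance trend and 52 with robust moderation. Directions turned for UBC19 (-0.06) and AT5G12910 (-0.0) under quantile scaling, UFO under median centring (0.10) and, without 1 array, for AT2G28720 (-0.34 to 0.50), AT1G08170 (-0.05 to 0.24), AT5G02570 (-0.01 to 1.01), SGA2 (-0.07 to 0.12), UBC19 (-0.21 to 0.24), AT1G06760 (-0.11 to 0.59), UFO (-0.17 to 0.06), CLV3 (-0.01 to 0.13) and AMS (-0.48 to 0.01). Those of AUR1 and AUR3 turned under median centring (0.04 and 0.08), and that of AUR3 also under quantile scaling (0.03). Both turned without 1 array too (-0.32 to 0.10 for AUR1 and -0.28 to 0.13 for AUR3). The cause was not tested. RMA values carry no depth or background measure, so low levels have no bound.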

Other observations

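The mitotic genes and the H2B genes differed in how the 2 replicate numbers compared. Of the 16 measured mitotic genes, replicate 2 was higher than replicate 1 for 14 at T24 and 15 at T0, with median differences of 0.27 and 0.73. Of the 9 measured H2B genes, replicate 2 was higher for 0 at T24 and 2 at T0, with median differences of -0.59 and -0.14. The excess on replicate 2 was not limited to mitotic genes. It was seen for 3 of 3 licensing genes at T24 and 2 at T0. Of the 5 genes of DNA synthesis and chromatin assembly, it was seen for 4 at T24 and 5 at T0. Of the 5 measured H3 genes, replicate 2 was higher for 1 at T24 and 2 at T0. Over all probe sets, replicate 2 was higher for 54.3% at T24 and 55.3% at T0. These are values from 1 array each, without a test.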
